A study of Oryza sativa with 36 samples.

Results

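A set of 10 chaperone genes of rice (Oryza sativa, japonica, TNG67) was followed through leaf RNA-seq of plants that had been regenerated from calli and of plants grown from seed. They belong to the HSP101, HSP90 and HSP70 families and include BiP1, and make up 10 of the 55986 genes in the deposited tables. They were chosen by gene family and identifier, with earlier results of these libraries known, and the rule names no value or threshold. Differences from Seedling are therefore given as a description of these libraries, set beside the share of all genes that did the same. Each of 9 groups had 2 libraries labelled as biological replicates. Regenerated plants form the groups PB, AMT+Hb, AMT+Ab, AgBi, AgTi, Ag, Callus+AM and Callus. Callus carries no treatment in its name, and the other names follow the transformation treatments that calli were given. The plants grown from seed are labelled Seedling. The labels do not spell out AM, Ag, Ti, Bi, AMT, Ab, Hb or PB, so the names are used as given. Which groups passed through callus is not written per sample and was read from the protocols and group names. The extraction text calls the rice transgenic without naming a transgene, and does not say which libraries used a column kit and which Trizol. All plants had been grown in a greenhouse to the tillering stage, and all libraries are from leaf. No time of day or temperature at harvest is stated.

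Heat shock proteins of these families keep other proteins folded. HSP70 proteins bind unfolded stretches of their clients, HSP90 proteins act later on clients that are nearly folded, and HSP101, a member of the Clp family of ring-shaped ATPases, pulls proteins back out of aggregates together with HSP70. BiP is the HSP70 of the endoplasmic reticulum, where it binds newly made secretory proteins. Many plant genes of these families are induced by heat through heat shock factors, while other members are made at all times. The tables hold identifiers without names. The list gave the families in the order HSP101, HSP90, HSP70 and BiP1. RefSeq (assembly ASM3414082v1) places hsp101 on chromosome 5, HSP81-1 (an HSP90) on chromosome 8, HSP81-2 and HSP81-3 on chromosome 9 and BIP1 on chromosome 2, and only 1 member lies on each of these chromosomes by its identifier. That LOC_Os04g01740 and LOC_Os06g50300 are HSP90 genes, and that LOC_Os03g16920, LOC_Os03g60620, LOC_Os11g47760 and LOC_Os01g62290 are HSP70 genes, follows the order of the list and was not checked with sequence. The HSP90 genes on chromosomes 8 and 9 and the HSP70 genes are close relatives, so counts of one may hold reads of another.

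Total counts were 26609812 to 33222427 in the 14 libraries of 7 regenerated groups and 41582054 to 52643973 in the Callus and Seedling libraries, so for those 7 groups depth and the comparison with Seedling cannot be told apart. The chaperone genes took 0.241% to 1.27% of all counts. The libraries of each group differed by more than counting noise. Tissue markers were listed by identifier from knowledge of the published rice annotation, which the files do not pair with names. The 8 leaf markers summed to 5484 to 26236 CPM (counts divided by the library's total, here without further scaling) in the 16 regenerated libraries and to 22819 to 30914 CPM in the Seedling libraries. The 2 listed for meristem or callus summed to at most 8.75 CPM in regenerated libraries and 0.0190 CPM in Seedling. The 3 listed for flower summed to 15.99 to 229 CPM in regenerated libraries and to 141 to 225 CPM in Seedling. The part of tissue make-up in the results was not tested. In bulk leaf, fewer cells of a type and less RNA per cell cannot be told apart.

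Most regenerated libraries held less HSP101 transcript than both Seedling libraries, and 3 did not. LOC_Os05g44340, the HSP101 gene, which encodes the disaggregase, stood at 0.922 and 2.16 CPM (from here on scaled between libraries by the TMM method) in Callus+AM, 1.12 and 1.63 in AgTi, 3.13 and 1.31 in Ag, 5.53 and 3.54 in AMT+Hb and 7.76 and 5.88 in Callus. It stood at 32.0 and 35.4 CPM in AMT+Ab, 9.90 and 301 in AgBi and 772 and 401 in PB, against 409 and 77.4 CPM in Seedling. Both PB libraries and AgBi replicate 2 thus lay in or above the Seedling range, and the other 13 regenerated libraries lay below both Seedling libraries. The log2 fold change of the 8 groups together, as an equal-weight mean of the groups on the log scale, was -4.33 (SE 0.592). The Seedling libraries differed 5.29-fold, and the log2 fold change became -2.67 when the first was left out and -5.08 when the second was. The TMM factors were 0.693 and 0.720 in Seedling and 0.831 to 1.24 in the regenerated libraries. Here and below, the scaling thus raised Seedling CPM relative to the other libraries.

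**Figure D1:**
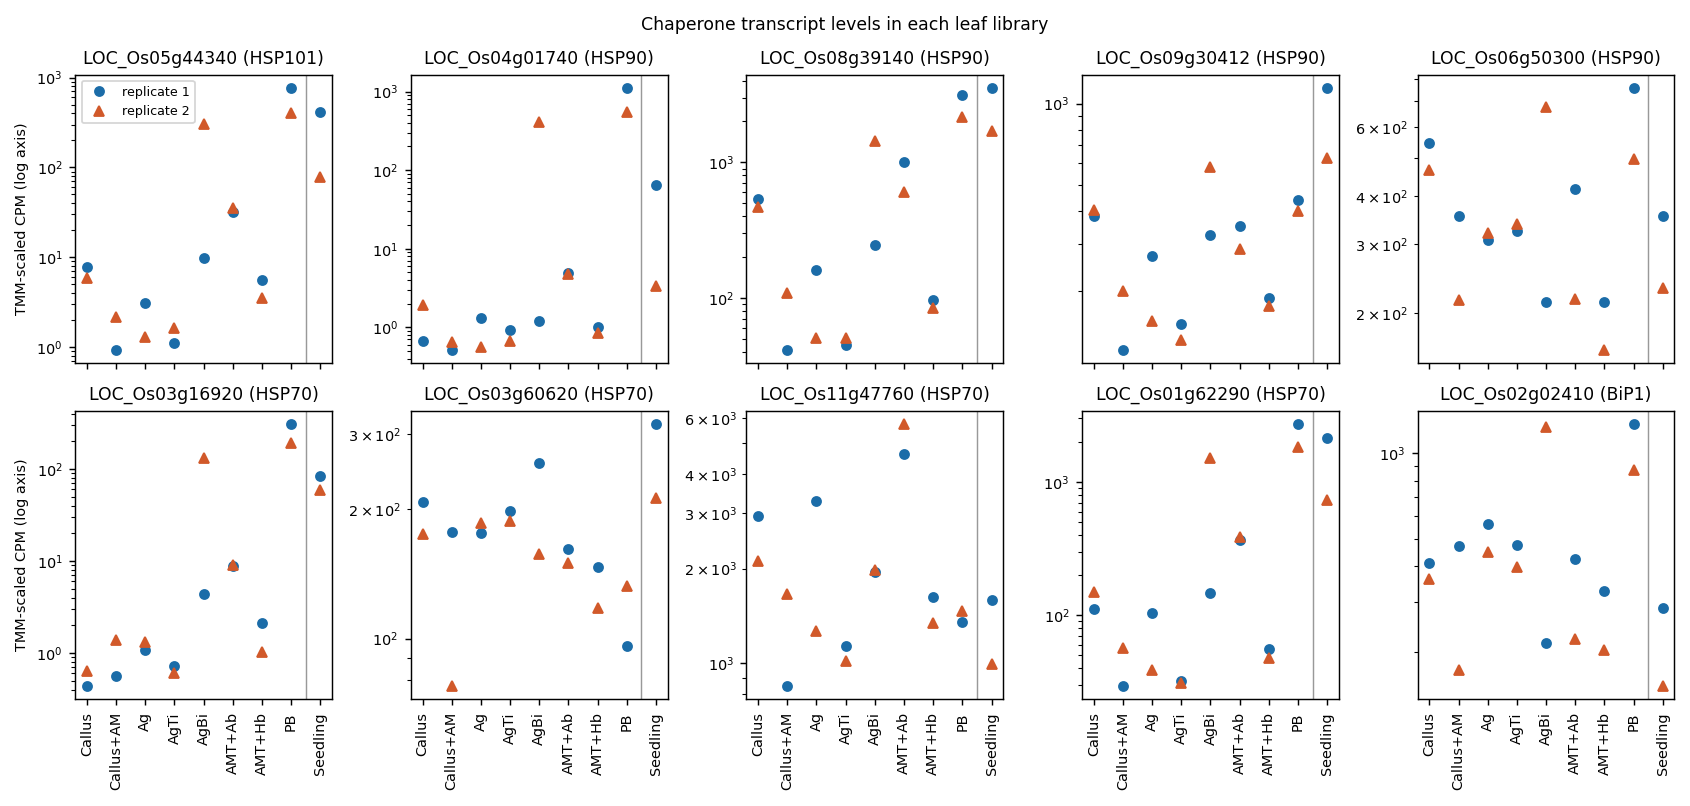
Level of each of the 10 chaperone genes in TMM-scaled CPM (log axis) in every library, with the 8 regenerated groups left of the line and Seedling right of it; circles are replicate 1 and triangles replicate 2. For LOC_Os05g44340 the PB libraries (772 and 401 CPM), AgBi replicate 2 (301 CPM) and the Seedling libraries (409 and 77.4 CPM) stand above the other 13 libraries.

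The HSP90 genes differed from each other in how widely they ranged. LOC_Os04g01740 had the widest range of the 10, with 2198-fold between its highest and lowest library. It held 1119.6 and 555 CPM in PB and 1.20 and 404 CPM in AgBi, 4.89 and 4.80 CPM in AMT+Ab, and 0.509 to 1.94 CPM in the 10 libraries of Callus, Callus+AM, Ag, AgTi and AMT+Hb, against 65.3 and 3.38 CPM in Seedling. The PB libraries and AgBi replicate 2 lay above both Seedling libraries, and 11 regenerated libraries lay below both. Its arithmetic mean was therefore the higher one in the regenerated plants, 131 ± 311 CPM (SD over 16 libraries), and the lower one in Seedling, 34.3 ± 43.8 CPM (SD over 2 libraries), while the equal-weight log2 fold change was -2.76 (SE 0.917). Leaving out Seedling replicate 1 turned that value to 0.60 and ended the call; it was -3.68 when Seedling replicate 2 was left out and -3.69 when AgBi replicate 2 was. The call was also lost by a small margin without any 1 of Callus replicate 1, Ag replicate 2, AgTi replicate 2, AMT+Ab replicate 1, AMT+Ab replicate 2, AMT+Hb replicate 1 or AMT+Hb replicate 2, at adjusted p-values of 0.0508 to 0.0534 by edgeR. The direction for this gene thus rests on Seedling replicate 1.

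LOC_Os08g39140 on chromosome 8 was the most abundant HSP90 transcript in Seedling per length, at 1424 and 695 FPKM (a level per transcript length). In CPM it ran over the 16 regenerated libraries from 41.3 (Callus+AM replicate 1) through a median of 204 to 3155 (PB replicate 1), against 3545 and 1704 CPM in Seedling. Both PB libraries (3155 and 2161 CPM) lay between the Seedling libraries, and the other 14 lay below both. Its log2 fold change for the 8 groups together was -3.26 (SE 0.428), and -2.63 without Seedling replicate 1. LOC_Os09g30412 on chromosome 9 moved less. All 16 regenerated libraries, at 121 to 581 CPM with a median of 279, lay below the Seedling libraries, at 1147 and 627 CPM. Its log2 fold change was -1.77 (SE 0.245). That order depends on the TMM scaling. By counts over totals, AgBi replicate 2 (17168 of 33222427) and PB replicate 1 (14770 of 31917683) lay above Seedling replicate 2 (23734 of 52643973). In deposited FPKM AgBi replicate 2 (247) lay just below Seedling replicate 2 (250).

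LOC_Os06g50300, the remaining HSP90 gene, was not called in any comparison with Seedling by edgeR over the 18 libraries. It ranged from 160 (AMT+Hb replicate 2) through a median of 332 to 758 CPM (PB replicate 1) in regenerated libraries, against 354 and 232 CPM in Seedling. Of the 16 regenerated libraries 7 lay above, 4 between and 5 below the Seedling libraries. That order depends on the TMM scaling. By counts over totals the lowest regenerated library, AMT+Hb replicate 2 (4978 of 27588858), lay above Seedling replicate 2 (8786 of 52643973). Its log2 fold change was 0.28 (SE 0.371).

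Among the HSP70 genes, LOC_Os03g16920 and LOC_Os01g62290 had the profile seen for HSP101. LOC_Os03g16920 stood at 0.435 and 0.632 CPM in Callus, 0.558 and 1.37 in Callus+AM, 1.09 and 1.31 in Ag, 0.721 and 0.601 in AgTi, 4.33 and 133 in AgBi, 8.82 and 9.13 in AMT+Ab, 2.14 and 1.03 in AMT+Hb and 311 and 191 in PB, against 84.2 and 59.6 CPM in Seedling. The PB libraries and AgBi replicate 2 lay above both Seedling libraries, the other 13 lay below both, and none fell between. Its log2 fold change for the 8 groups together was -4.09 (SE 0.531). LOC_Os01g62290 ran from 29.4 through a median of 107 to 2737 CPM in regenerated libraries, against 2143 and 730 CPM in Seedling. PB replicate 1 lay above the Seedling range, PB replicate 2 (1813 CPM) and AgBi replicate 2 (1500 CPM) within it and the other 13 below it. Its log2 fold change was -3.15 (SE 0.471), and -2.16 without Seedling replicate 1.

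The other HSP70 genes stayed at 31.0 FPKM or more in every library. LOC_Os11g47760 had the highest median of the 10 genes per length, 722 FPKM, with 371 to 2618 FPKM over the 18 libraries. In CPM it ran from 845 through a median of 1643 to 5772 in regenerated libraries, against 1593 and 994 CPM in Seedling, and its highest libraries were those of AMT+Ab, at 4624 and 5772 CPM. Of the regenerated libraries 9 lay above, 6 within and 1 below the Seedling range, with a log2 fold change of 0.55 (SE 0.350). That order depends on the TMM scaling. By counts over totals, Callus+AM replicate 1 (34862 of 33163869) lay between the Seedling libraries (54926 of 49785176 and 37657 of 52643973). Every other regenerated library lay above both, AgTi replicate 2 (40723 of 33189741) among them. LOC_Os03g60620 had the narrowest range of the 10 genes, 4.10-fold over 18 libraries. It was at 77.4 to 257 CPM in regenerated libraries, with a median of 169, against 317 and 213 CPM in Seedling, and 15 of 16 regenerated libraries lay below both. Its log2 fold change of -0.73 (SE 0.256) was called, but the call was lost without either Seedling library or any 1 of Callus replicate 1, Callus replicate 2, Ag replicate 1, AgTi replicate 1, AgTi replicate 2, AMT+Ab replicate 1, AMT+Ab replicate 2, AMT+Hb replicate 2 or PB replicate 1, with edgeR adjusted p-values of 0.0511 to 0.493. Leaving out Seedling replicate 1 gave -0.40. The order of libraries for LOC_Os03g60620 also depends on the TMM scaling. By counts over totals, both AgTi libraries (7411 of 31800597 and 7491 of 33189741) lay above both Seedling libraries (10936 of 49785176 and 8064 of 52643973). So did Ag replicate 2, AgBi replicate 1 and, by a small margin, Callus+AM replicate 1 (7292 of 33163869). In deposited FPKM the AgTi libraries (82.8 and 75.9) lay below both Seedling libraries (127 and 86.7).

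LOC_Os02g02410, BiP1, lay above Seedling in most libraries, though not past the test for the 8 groups together. It stood at 409 and 360 CPM in Callus, 471 and 172 in Callus+AM, 563 and 450 in Ag, 476 and 398 in AgTi, 215 and 1238 in AgBi, 424 and 221 in AMT+Ab, 329 and 204 in AMT+Hb and 1272 and 873 in PB, against 286 and 151 CPM in Seedling. Of the regenerated libraries 12 lay above the Seedling range, 4 within it and 0 below it. The log2 fold change of the 8 groups together, 1.06 (SE 0.557), was not called, and it was 1.15 and called without AgBi replicate 1 (edgeR adjusted p = 0.0473).

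For the 8 groups together, 7 of the 10 genes were called lower, where 20.5% of 26374 genes tested were called lower, and 0 were called higher, where 17.1% of genes were. A call is an adjusted p below 0.05 in edgeR's quasi-likelihood test, adjusted over all genes tested, and all 10 genes passed the filter on low counts. No member was higher at an unadjusted p under 0.05 in edgeR or called higher by DESeq2. The median log2 fold change was -2.27 over the chaperone genes and 0.07 over all genes. The count was 5 to 8 when single libraries were left out. Leaving out the AgBi and PB groups, a choice made after seeing the data, gave 7 calls, all lower, where 39.8% of 25559 genes were called in either direction. The log2 fold changes were -5.88 for LOC_Os05g44340, -5.74 for LOC_Os03g16920, -4.87 for LOC_Os04g01740, -4.18 for LOC_Os01g62290 and -4.08 for LOC_Os08g39140. These 5 genes had their highest regenerated libraries in the groups left out. Lower values were thus bound to follow, and this fit is no separate support.

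The separate comparisons with Seedling, which share the Seedling libraries, fell into different patterns. In Callus+AM 7 genes were called lower (14.1% of all genes were) and 0 higher (17.4%). In Ag 6 were called lower (15.2%) and 0 higher (15.8%), in AgTi 6 lower (16.4%) and 0 higher (15.0%), and in AMT+Hb 6 lower (16.7%) and 0 higher (18.1%). In these 4 groups the same genes were called, namely LOC_Os05g44340, LOC_Os04g01740, LOC_Os08g39140, LOC_Os09g30412, LOC_Os03g16920 and LOC_Os01g62290, with LOC_Os03g60620 added in Callus+AM. In each of the 4 groups the call of LOC_Os04g01740 ended when Seedling replicate 1, or either library of that group, was left out (edgeR adjusted p 0.141 to 0.496). In AMT+Hb that of LOC_Os05g44340 ended when AMT+Hb replicate 1 was left out. In Callus+AM the call of LOC_Os03g60620 was lost if any 1 of Seedling replicate 1, Seedling replicate 2 and Callus+AM replicate 2 was removed. In these groups and in Callus no member was higher at an unadjusted p under 0.05 or by DESeq2, but 1 was called higher in AgTi when AgTi and Seedling were fitted alone, and LOC_Os11g47760 was called higher in Ag when Ag replicate 2 was left out.

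In Callus 4 genes were called lower (10.1% of all genes) and 0 higher (9.30%). These were LOC_Os05g44340, LOC_Os08g39140, LOC_Os03g16920 and LOC_Os01g62290. The count was 1 without Callus replicate 1, Callus replicate 2 or Seedling replicate 1, and LOC_Os03g16920 was the gene that was left each time. In AMT+Ab 2 genes were called lower (14.9%), LOC_Os09g30412 and LOC_Os03g16920, and 1 was called higher (15.7%), LOC_Os11g47760. LOC_Os11g47760 stood at 5198 ± 812 CPM in AMT+Ab against 1294 ± 424 CPM in Seedling (SD, n = 2 each), and its libraries did not overlap. Without any 1 of the 4 libraries of AMT+Ab and Seedling the total of 3 was 1, and the call of LOC_Os11g47760 ended without Seedling replicate 2. DESeq2 called 6 genes in AMT+Ab, 1 higher and 5 lower, where it called 36.2% of all genes. With single libraries left out, calls over all genes also fell in Callus and AMT+Ab, as given in the last section.

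In AgBi 0 genes were called lower (11.4%) and 0 higher (11.7%). At an unadjusted p under 0.05 edgeR gave 1 lower and 1 higher gene. DESeq2 called 1 gene higher, LOC_Os02g02410, where it called 29.7% of all genes in either direction. Without AgBi replicate 2 the count was 4, all lower (LOC_Os05g44340, LOC_Os08g39140, LOC_Os03g16920 and LOC_Os01g62290), where 8.53% of all genes were called in either direction. Without AgBi replicate 1 it was 2, both higher (LOC_Os04g01740 and LOC_Os02g02410), where 20.9% of all genes were called, against 23.1% with every library in. In PB 2 genes were called lower (18.4%), LOC_Os09g30412 and LOC_Os03g60620, and 1 was called higher (19.7%), LOC_Os02g02410, which stood at 1072 ± 282 CPM in PB against 219 ± 95.6 CPM in Seedling (SD, n = 2 each). Its call ended without PB replicate 1 or either Seedling library. The PB count of 3 was 0 without PB replicate 1, 2 without PB replicate 2, 1 without Seedling replicate 1 (LOC_Os04g01740, then called higher) and 2 without Seedling replicate 2. In these fits 21.9%, 24.0%, 19.1% and 19.3% of all genes were called, in the same order, against 38.1% with every library in. The balance of directions in PB also depended on the fit, since 3 genes were higher at an unadjusted p under 0.05. DESeq2 called 2 higher and 2 lower, limma at either pseudocount 2 higher and 1 lower, and edgeR on PB and Seedling alone 3 higher and 1 lower. In either direction DESeq2 called 42.2% of all genes, limma 36.5% (pseudocount 1) and 37.8% (pseudocount 0.1), and the fit of PB and Seedling alone 42.5%. The counts of chaperone genes lay near these shares. In PB the median log2 fold change of the chaperone genes was 0.88, against -4.03 in AgTi, -3.77 in Callus+AM, -3.54 in AMT+Hb, -3.20 in Ag, -1.78 in Callus, -1.59 in AMT+Ab and -0.21 in AgBi. Over all genes these medians lay between 0 and 0.16.

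**Figure D2:**
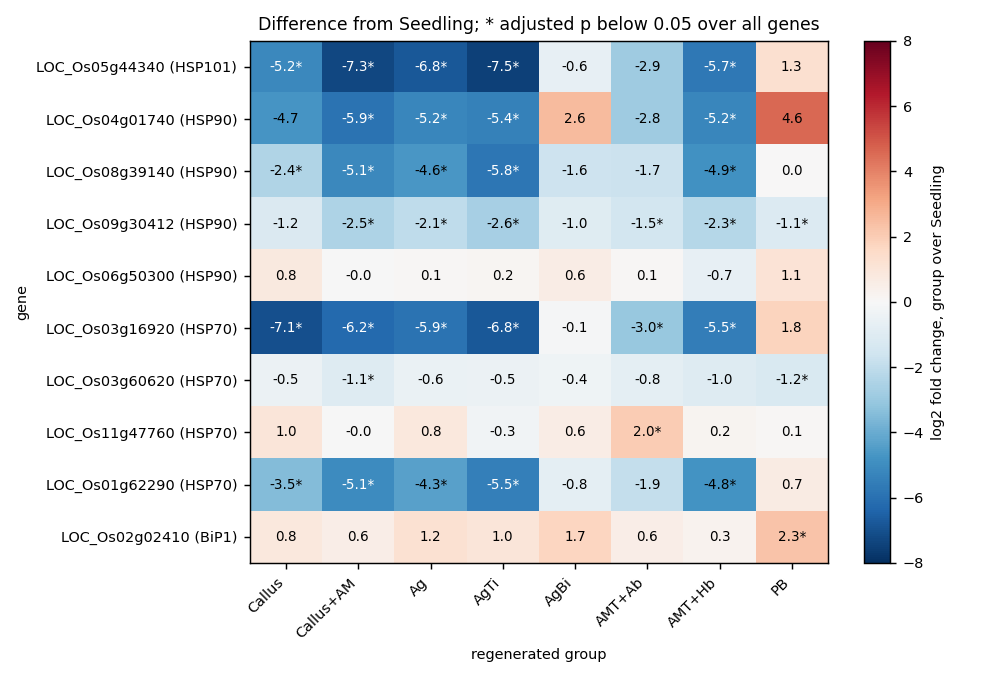
Log2 fold change of each chaperone gene (rows) in each regenerated group over Seedling (columns) from the edgeR fit; blue is lower and red higher than Seedling, and an asterisk marks an adjusted p below 0.05 over all genes. Callus+AM, Ag, AgTi and AMT+Hb share 6 lower genes, AgBi has no called gene, and in PB LOC_Os02g02410 is higher.

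Whether regenerated groups differed from each other was tested with a single F test over the 8 groups, which does not use Seedling as a control. By this test 7 of 10 genes were called, where 49.5% of all genes were. They were LOC_Os03g16920 (edgeR adjusted p = 0.000302), LOC_Os05g44340 (0.000726), LOC_Os01g62290 (0.000928), LOC_Os08g39140 (0.00111), LOC_Os04g01740 (0.00140), LOC_Os11g47760 (0.0123) and LOC_Os09g30412 (0.0129). The genes not called were LOC_Os06g50300 (0.112), LOC_Os02g02410 (0.153) and LOC_Os03g60620 (0.283). The first 2 of these passed by DESeq2 (adjusted p 0.0240 and 0.0289), which called 65.3% of all genes in this comparison. In edgeR both were called when either AgBi library was left out. LOC_Os03g60620 passed without Callus+AM replicate 1 (0.0386), and LOC_Os11g47760 did not without AMT+Ab replicate 2 (0.0716). With the AgBi and PB groups left out, 5 of 10 genes were called and 20.3% of all genes, and LOC_Os04g01740 (0.146) and LOC_Os09g30412 (0.0572) were not.

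The libraries of AgBi were far apart for many of these genes. In AgBi 6 of the 10 genes differed by over 4-fold between libraries, after adding 0.5 CPM, where 2.32% of all genes did, and in Seedling 2 of 10 did, where 0.758% of all genes did (LOC_Os04g01740 at 19.3-fold and LOC_Os05g44340 at 5.29-fold). In the other 7 groups 0 of 10 did, where 0.277% (AMT+Ab) to 6.52% (Callus+AM) of all genes did. A count of 0 among 10 genes is near those shares. Smaller differences were present there, such as 3.20-fold in Ag for LOC_Os08g39140 and 2.74-fold in Callus+AM for LOC_Os02g02410. AgBi replicate 2 exceeded replicate 1 by 335-fold for LOC_Os04g01740, 30.7-fold for LOC_Os03g16920, 30.4-fold for LOC_Os05g44340, 10.2-fold for LOC_Os01g62290, 5.88-fold for LOC_Os08g39140 and 5.77-fold for LOC_Os02g02410. LOC_Os11g47760 was at 1953 and 1976 CPM in the same libraries, a ratio of 1.01. A mean over the AgBi libraries therefore describes neither library for the 6 genes.

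**Figure D3:**
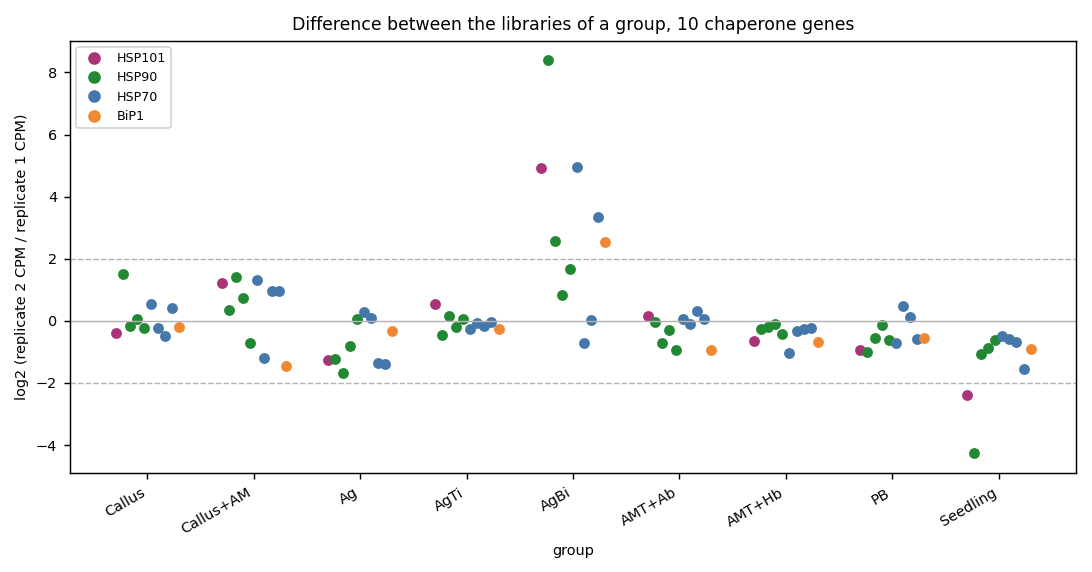
Log2 ratio of replicate 2 over replicate 1 (CPM) for each of the 10 chaperone genes in each group, coloured by family; dashed lines mark 4-fold. In AgBi 6 genes lie beyond the line, in Seedling 2 do, and in the other groups none does.

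The mix of transcripts within a family shifted with the libraries. Per length, and as a share of the summed FPKM of the 4 HSP70 genes, LOC_Os01g62290 made up 58.5% and 47.9% in PB, 37.4% in AgBi replicate 2 and 2.20% to 6.49% in the other 13 regenerated libraries, against 47.7% and 32.7% in Seedling. LOC_Os11g47760 made up the rest for the most part, at 81.8% to 93.1% in those 13 libraries, 55.1% in AgBi replicate 2 and 32.4% and 43.2% in PB, against 43.1% and 54.8% in Seedling. The summed level of these 4 HSP70 genes, which are a part of the family, overlapped. It was 454 to 2840 FPKM in regenerated libraries and 1763 and 890 FPKM in Seedling. In the 4 HSP90 genes of the set the summed level was 2280 and 1505 FPKM in PB and 1314 in AgBi replicate 2. It was 163 to 693 FPKM in the other 13 regenerated libraries, and 2027 and 1030 FPKM in Seedling. LOC_Os08g39140 made up 59.0% and 61.2% of it in PB, 58.3% and 56.1% in AMT+Ab, 32.7% and 48.0% in AgBi, 38.4% and 36.9% in Callus, and 8.70% to 23.2% in the 8 libraries of Callus+AM, Ag, AgTi and AMT+Hb, against 70.2% and 67.5% in Seedling. Libraries of a group differed here too, with 8.70% and 22.0% in Callus+AM. LOC_Os06g50300 made up 35.6% to 66.4% in those 8 libraries (66.4% and 38.6% in Callus+AM) and 12.5% to 34.7% in the other 8 regenerated libraries, against 6.23% and 8.15% in Seedling.

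**Figure D4:**
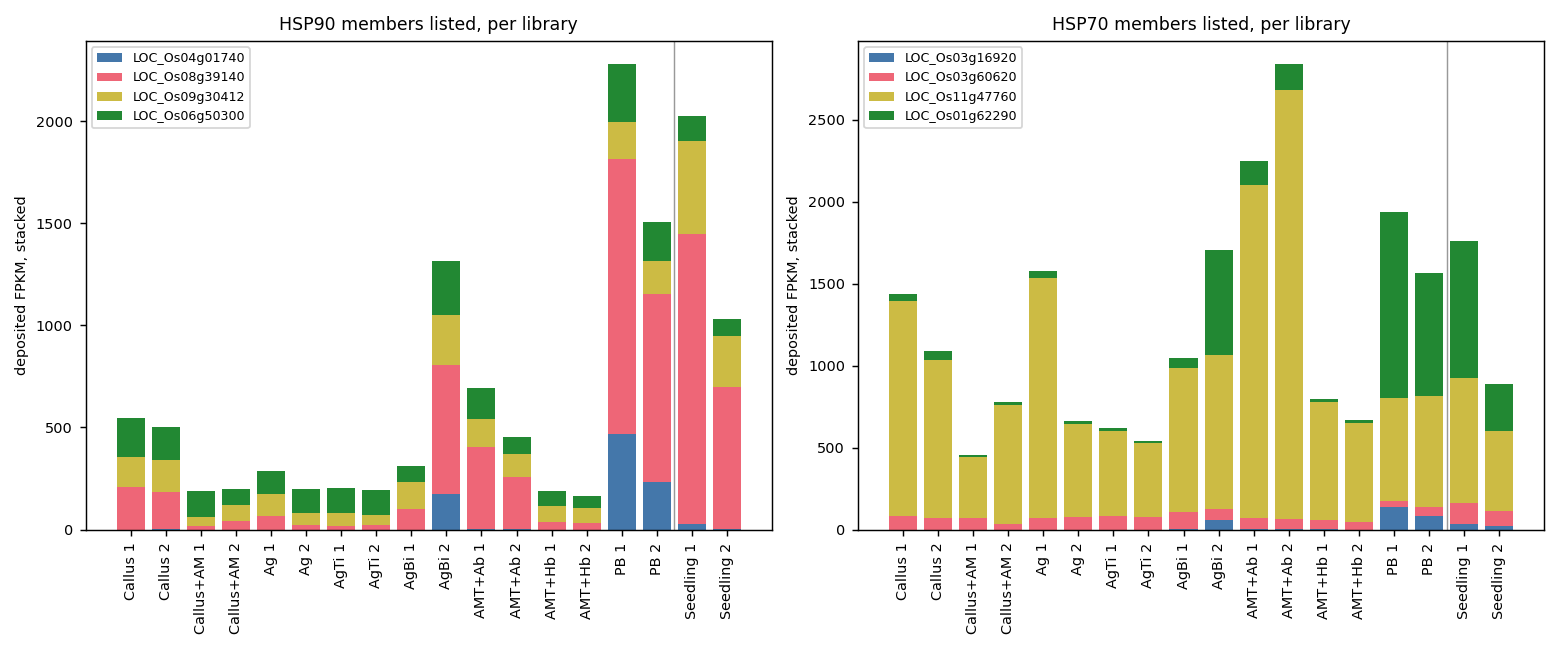
Deposited FPKM of the HSP90 genes (left) and HSP70 genes (right), stacked per library from 0, with Seedling right of the line. LOC_Os08g39140 and LOC_Os01g62290 are large in PB, AgBi replicate 2 and Seedling, and LOC_Os11g47760 makes up most of the sum of the listed HSP70 genes elsewhere.

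Over the 18 libraries the 10 genes fell into sets with similar profiles. The following Pearson correlations of log2(CPM + 0.5) describe 18 libraries that share groups and treatment, and carry no test. LOC_Os05g44340 correlated at 0.988 with LOC_Os01g62290, 0.964 with LOC_Os03g16920, 0.945 with LOC_Os08g39140 and 0.919 with LOC_Os04g01740. LOC_Os02g02410 correlated best with LOC_Os06g50300 (0.848), at 0.662 with LOC_Os04g01740 and at 0.389 with LOC_Os05g44340. LOC_Os06g50300 correlated at 0.651 with LOC_Os04g01740, so these sets were not sharply apart. LOC_Os03g60620 and LOC_Os11g47760 correlated at no more than 0.304 with any other member. For 4 of the 10 genes, LOC_Os05g44340, LOC_Os08g39140, LOC_Os03g16920 and LOC_Os01g62290, the 5 highest of all 18 libraries were the PB, Seedling and AgBi replicate 2 libraries. Of all 26374 genes tested 1.02% had this order, and the 5 libraries were singled out after the levels of these genes were seen.

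Outside the 10 genes, the 3 profiles most like that of LOC_Os05g44340 were those of LOC_Os02g54140 (r = 0.987), LOC_Os03g11910 (r = 0.987) and LOC_Os01g55270 (r = 0.985). Those most like LOC_Os03g16920 were LOC_Os06g04390 (0.970), LOC_Os02g15930 (0.968) and LOC_Os03g11910 (0.962). Those most like LOC_Os02g02410 were LOC_Os09g27830 (0.933), LOC_Os07g14270 (0.931) and LOC_Os04g32950 (0.930). LOC_Os02g54140 is in the list of small heat shock proteins described next, LOC_Os03g11910 in that of other chaperones, and the 3 genes like LOC_Os02g02410 are in the list of folding genes of the endoplasmic reticulum, which holds 6 genes.

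Lists of related genes, written by identifier from knowledge of the published rice annotation with no names in the files to check them by, were set beside the 10 genes. Over all genes the median log2 fold change was 0.07 and 17.1% were called higher, 20.5% lower and 49.5% different among regenerated groups. Of 14 small heat shock protein genes, which hold unfolding proteins for HSP70 and HSP101, 9 were called lower in the 8 groups together and 0 higher, with a median log2 fold change of -2.84, and 14 of 14 differed among the regenerated groups. LOC_Os03g16020 of this list was at 0.225 to 355 CPM in regenerated libraries, with a median of 2.93, against 404 and 66.6 CPM in Seedling, with a log2 fold change of -5.58 (SE 0.621). That became -3.74 if Seedling replicate 1 was left out and -6.35 if Seedling replicate 2 was. LOC_Os03g16030 was at 0.536 to 736 CPM in regenerated libraries, with a median of 2.73, against 344 and 38.4 CPM in Seedling (log2 fold change -4.89, SE 0.708). It was -5.73 when Seedling replicate 2 and -5.62 when AgBi replicate 2 was left out, and leaving out Seedling replicate 1 ended its call (-2.56). Both genes had their highest regenerated level in PB replicate 1. The count of 9 was 4 without Seedling replicate 1. No gene of this list was higher at an unadjusted p under 0.05, while DESeq2 called 1 higher, as did edgeR without AgBi replicate 1 or AgBi replicate 2.

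Of 21 tested genes in the list of other HSP70, HSP90 and Clp genes, 10 were called lower and 0 higher, with a median of -0.79, and 17 differed among the regenerated groups. The count of 10 was 3 without Seedling replicate 1, and 0 genes were higher at an unadjusted p under 0.05 or by DESeq2. LOC_Os05g38530 was at 7.31 to 919 CPM, with a median of 56.4, in regenerated libraries, against 1636 and 816 CPM in Seedling (log2 fold change -4.20, SE 0.349, and -3.60 without Seedling replicate 1). LOC_Os02g08490 was at 3.42 to 761 CPM, with a median of 12.8, in regenerated libraries, against 354 and 80.6 CPM in Seedling (log2 fold change -3.09, SE 0.465). Its call ended without Seedling replicate 1 (-1.65), and it was at -3.79 without Seedling replicate 2. Of 21 tested heat shock factor genes, which encode the regulators of the heat response, 11 were called lower and 2 higher, with a median of -0.88. LOC_Os03g06630 was at 2.11 to 154 CPM in regenerated libraries and 547 and 627 CPM in Seedling (log2 fold change -4.22, SE 0.519), and no regenerated library reached the Seedling levels. LOC_Os08g43334 was at 0.268 to 27.5 CPM in regenerated libraries and 101 and 67.5 CPM in Seedling (log2 fold change -4.19, SE 0.531). LOC_Os01g53220 was higher, at 13.8 to 157 CPM in regenerated libraries and 1.62 and 0.871 CPM in Seedling (log2 fold change 5.54, SE 0.584). LOC_Os06g35960 was called higher, at 0.253 to 11.1 CPM in regenerated libraries and 0.348 and 0.211 CPM in Seedling (log2 fold change 3.30, SE 0.934), and the call ended without either Seedling library. The number of factors called higher was 1 without Seedling replicate 2. Among the regenerated groups 16 of the 21 differed.

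Of 6 genes for folding in the endoplasmic reticulum, LOC_Os11g09280 was called higher, the median was 0.82, and 0 were lower, also at an unadjusted p under 0.05 and by DESeq2, which called 3 higher. LOC_Os11g09280 was at 284 to 630 CPM in regenerated libraries, all 16 above the Seedling libraries at 146 and 113 CPM (log2 fold change 1.79, SE 0.282). The count of 1 was 3 without AgBi replicate 1, 2 without AgBi replicate 2 and 2 without Callus+AM replicate 2. By the test among regenerated groups 1 of these 6 genes differed, and 3 did without AgBi replicate 1 and 2 without AgBi replicate 2 or Ag replicate 2.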

How the data were processed

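RNA-seq tables of 18 leaf libraries were analysed, and the 18 bisulfite samples were not used here. The authors deposited estimated counts per gene (0.707% of values not whole) and FPKM. Per the submitters' processing notes, the tools were TopHat, Cuffnorm and Cuffdiff; no source used here gives their settings, the genome build or the use of strand. Counts were rounded, 26374 of 55986 genes passed filterByExpr, and libraries were scaled by TMM (trimmed mean of M values). With edgeR 4.0.16 in R 4.3.3, the whole table was fitted by robust quasi-likelihood, each group having its own coefficient (9 residual degrees of freedom). P-values were adjusted by Benjamini-Hochberg over all genes in each comparison, with calls below 0.05. Standard errors are the log2 fold change divided by the square root of F. CPM levels are TMM-scaled, and the deposited FPKM serve for levels between genes. The steps were checked on simulated counts. The labels give no batch.

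The members and lists were chosen with earlier results of these data known. All 10 members are named. From each list the text names at most 2 genes in each direction, those called with the largest absolute log2 fold change. RefSeq matched 1 identifier of the table and 0 members. Alternatives were relative log expression factors, no filter, DESeq2 1.42.0, limma 3.58.1 on log2(FPKM + 1) and log2(FPKM + 0.1) with a mean of 1 FPKM or more, a test against a 1.5-fold change, a replicate block, fits of the compared groups alone, and each library left out.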

Additional observations from a re-analysis of the deposited data

Results flagged for a closer look

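For 7 chaperone genes the difference from Seedling was not the same in all 8 regenerated groups, by the edgeR F test among these groups (adjusted over 26374 genes, of which 49.5% were called). The adjusted p was 0.000302 for LOC_Os03g16920, 0.000726 for LOC_Os05g44340, 0.000928 for LOC_Os01g62290, 0.00111 for LOC_Os08g39140, 0.0014 for LOC_Os04g01740, 0.0123 for LOC_Os11g47760 and 0.0129 for LOC_Os09g30412. In 6 of them, all but LOC_Os11g47760, the single highest regenerated library was PB replicate 1 or, for LOC_Os09g30412, AgBi replicate 2, and LOC_Os11g47760 was highest in AMT+Ab.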

How the results depend on the processing

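Relative log expression factors and limma on FPKM at either pseudocount kept every count of called chaperone genes within 1.5 times. Single genes did move for the 8 groups together: the call of LOC_Os04g01740 ended with limma on log2(FPKM + 1) (-0.98, adjusted p 0.537) and log2(FPKM + 0.1) (-1.77, 0.345), with no filter (edgeR adjusted p 0.109) and against a fold of 1.5 (0.0621). Limma on log2(FPKM + 1) gave -3.32 for LOC_Os05g44340 and -3.04 for LOC_Os03g16920, and the call of LOC_Os03g60620 ended against a fold of 1.5 (0.295). The count in Callus against Seedling (4) was 2 with no filter on low counts, where 9.79% of all genes were called. That in PB (3) was 1 against a fold of 1.5 (26.2% of all genes), and that in AgBi (0) was 1 with DESeq2 (29.7%). That in AMT+Ab (3) was 6 with DESeq2 (36.2%) and 6 with only the groups compared in the fit (41.2%). The causes were not tested. With single libraries left out, the counts were 5 to 8 for the 8 groups together, 1 to 4 for Callus, 5 to 6 for Callus+AM, Ag and AgTi, 0 to 4 for AgBi, 1 for AMT+Ab, 4 to 6 for AMT+Hb, 0 to 2 for PB and 6 to 9 among the regenerated groups. The lone library of a group was then taken to vary as other groups do. Over these fits the log2 fold change of LOC_Os04g01740 ran from -3.69 (AgBi replicate 2 left out) to 0.60 (Seedling replicate 1 left out), a reversed sign. Over all genes, calls for the 8 groups together (9910) were 5829 against a fold of 1.5, 5583 without Seedling replicate 1 and 4715 with Seedling replicate 2 left out. With single libraries left out they were 2015 to 2840 in Callus (5110), 4045 to 7468 in Callus+AM (8288), 4393 to 6690 in Ag (8187), 4054 to 5341 in AgTi (8277), 2302 to 5870 in AgBi (6098), 2873 to 5070 in AMT+Ab (8068), 4173 to 6707 in AMT+Hb (9182) and 5372 to 6606 in PB (10058). Against a fold of 1.5 they were 3016 in Callus (5110), 5375 in Ag (8187), 3174 in AgBi (6098) and 4726 in AMT+Ab (8068). With only the groups compared they were 2429 in Callus+AM (8288) and 3530 in AgBi (6098), and among regenerated groups (13050) they were 5193 without AgBi and PB. Replicate numbers are not said to pair samples, and the deviations of same-numbered libraries correlated between groups at -0.50 to 0.26 across genes. With the replicate number as a block, 6 members were called for the 8 groups together (35% of all genes were), and LOC_Os04g01740 was lost. The counts were 3 for Callus (17.2%), 6 for Callus+AM (28.4%), 5 for Ag (28.2%) and 5 for AgTi (29.2%). They were 0 for AgBi (20%), 3 for AMT+Ab (27.6%), 6 for AMT+Hb (32.1%) and 2 for PB (35.2%). Among the regenerated groups 7 were called (42.1%). A level of 3 counts equalled 0.057 to 0.113 CPM before TMM scaling, and the lowest member level was 0.435 scaled CPM (18 counts). The part of depth in the results was not tested.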
